A study of Mus musculus with 6 samples.

Results

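The promoters described here are those of the potassium channel genes, taken as every gene whose symbol on the array annotation starts with Kcn. There were 83 such genes, and all 83 had enough probes to be measured, among 16331 promoters measured on the arrays. Rybp, which belongs to the variant Polycomb repressive complexes 1 that place ubiquitin on histone H2A, was mapped at them in embryonic stem (ES) cells of the mouse, by chromatin immunoprecipitation read on promoter arrays. The Eed-KO cells carry a constitutive knockout of Eed, a core subunit of Polycomb repressive complex 2, and the Dnmt1-KO cells a constitutive knockout of Dnmt1, the methyltransferase that keeps DNA methylation through cell division. Wild-type (WT) ES cells were the comparison. All 3 genotypes were grown in serum with leukaemia inhibitory factor, on irradiated fibroblast feeders or on gelatin (which of these is not stated per culture), and were fixed with formaldehyde. The Rybp antibody, from a commercial supplier, and the amplification with T7 RNA polymerase were the same throughout. The probe set is split over 2 array designs, so a promoter had 1 array per genotype and 3 in all, with no replicate. No p-value can be given, and precision is limited by how few arrays there are.

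Potassium channels let potassium ions leave or enter the cell, and so set the resting potential and end the action potential. The voltage-gated (Kv), KCNQ and Eag families open on depolarisation, the inward rectifiers (Kcnj) and the two-pore-domain leak channels (Kcnk) hold the resting potential, and a further group opens on calcium or sodium. Silent Kv subunits and the Kcnab, Kcne and Kcnip proteins form no channel of their own but change the gating or traffic of others. Most of these genes are known for their roles in neurons, heart muscle, kidney and lymphocytes, and Polycomb complexes are known in ES cells for occupying CG-rich promoters of genes used in later lineages.

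The level at a probe is log2 of immunoprecipitated (IP) over input DNA, centred on the median of its array, so 0 is the typical probe. Each promoter was scored by the average of 6 consecutive probes of the gene, its window, placed within 3 kb wherever the average over the 3 genotypes was highest. Promoters at 1 or above, a 2-fold excess of IP over input, are called bound. A difference between genotypes is called at 1 or more in size. Errors of levels are standard deviations (SD), and errors of differences standard errors (SE), taken over the 6 probes. Both cover the scatter between probes and no variation between cultures or hybridisations. The Kcn windows had a median length of 980 bp, and their centres lay at a median distance of 554 bp from the annotated start.

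To show what was measured, probe sequences are given for 4 of the promoters bound in WT cells. For contrast, Kcnj16, one of the 5 Kcn promoters with the lowest WT level, is added. The probe shown is the one of the window with the highest WT level upstream of the start. The sequences are printed as spotted on the array, with every CG in capitals. Their coordinates are those of the array annotation, for which the sources used here name no genome build.
Kcnf1: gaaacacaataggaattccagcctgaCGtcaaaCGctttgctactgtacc
Kcnk13: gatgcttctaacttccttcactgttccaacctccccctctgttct
Kcnh7: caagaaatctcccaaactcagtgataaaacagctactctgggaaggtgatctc
Kcnk9: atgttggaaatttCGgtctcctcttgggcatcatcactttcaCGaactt
Kcnj16: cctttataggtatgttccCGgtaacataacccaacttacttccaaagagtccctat
The Kcnf1 probe lies at chr12:17202051-17202100, 70 bp upstream of the start, and read 1.60 in Eed-KO, 4.46 in Dnmt1-KO and 1.31 in WT cells. The Kcnk13 probe lies at chr12:100366198-100366242, 737 bp upstream of the start, and read 2.29 in Eed-KO, 3.26 in Dnmt1-KO and 1.58 in WT cells. It holds no CG, and neither does the Kcnh7 probe at chr2:62985574-62985626, 474 bp upstream, which read 1.43 in Eed-KO, 2.72 in Dnmt1-KO and 1.99 in WT cells. The high WT levels of these 2 probes were read on sequence without a CG, next to probes that have them. The Kcnk9 probe at chr15:72373669-72373717, 158 bp upstream, holds 2 CG and read 1.99 in Eed-KO, 1.95 in Dnmt1-KO and 1.53 in WT cells. The Kcnj16 probe at chr11:110780228-110780283, 3908 bp upstream, holds 1 CG and read -0.23 in Eed-KO, -0.46 in Dnmt1-KO and 0.20 in WT cells.

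The bases before the start are shown for 5 genes, the 3 highest and 2 lowest in WT level of those whose RefSeq promoter entry (GRCm38.p6) holds a probe of the gene. They run 5′ to 3′ in the direction of the gene and end at the base before the RefSeq start, with every CG in capitals.
Kcnj8: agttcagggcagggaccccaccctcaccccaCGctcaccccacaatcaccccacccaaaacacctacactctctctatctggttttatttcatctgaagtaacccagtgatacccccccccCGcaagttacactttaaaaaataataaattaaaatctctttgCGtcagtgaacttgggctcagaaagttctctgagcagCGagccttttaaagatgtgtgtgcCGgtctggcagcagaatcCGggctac
Kcna3: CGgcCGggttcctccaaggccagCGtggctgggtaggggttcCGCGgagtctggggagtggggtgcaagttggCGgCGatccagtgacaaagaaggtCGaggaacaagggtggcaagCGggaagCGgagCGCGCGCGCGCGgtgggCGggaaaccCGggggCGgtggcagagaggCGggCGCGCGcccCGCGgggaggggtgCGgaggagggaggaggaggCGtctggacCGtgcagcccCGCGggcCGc
Kcns3: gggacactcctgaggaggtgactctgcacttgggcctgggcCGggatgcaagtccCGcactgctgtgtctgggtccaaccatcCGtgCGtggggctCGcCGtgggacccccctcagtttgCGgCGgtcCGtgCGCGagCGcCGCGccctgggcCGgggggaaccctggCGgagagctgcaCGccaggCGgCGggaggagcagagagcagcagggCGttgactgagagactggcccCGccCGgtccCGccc
Kcnj1: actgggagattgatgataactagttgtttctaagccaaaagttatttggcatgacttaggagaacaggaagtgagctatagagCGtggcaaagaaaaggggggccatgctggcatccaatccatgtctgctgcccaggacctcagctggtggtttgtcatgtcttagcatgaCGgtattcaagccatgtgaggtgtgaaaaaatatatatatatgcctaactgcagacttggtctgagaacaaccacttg
Kcnj16: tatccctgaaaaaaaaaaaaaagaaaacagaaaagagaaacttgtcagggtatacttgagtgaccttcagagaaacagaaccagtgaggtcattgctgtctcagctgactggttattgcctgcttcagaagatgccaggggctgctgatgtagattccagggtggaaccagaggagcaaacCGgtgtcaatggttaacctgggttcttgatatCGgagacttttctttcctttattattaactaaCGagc
The Kcnj8 stretch (chr6:142571615-142571864, minus strand), from a promoter bound in all 3 genotypes, holds 6 CG. The 1 probe inside it read 1.34 in Eed-KO, 1.44 in Dnmt1-KO and 0.78 in WT cells. The Kcna3 stretch (chr3:107035912-107036161, plus strand) holds 31 CG, and the 1 probe inside it read -1.12 in Eed-KO, 2.79 in Dnmt1-KO and -0.52 in WT cells. The window of Kcna3, centred 477 bp downstream of the array's start, was bound in all 3 genotypes, so this CG-dense probe read low in Eed-KO and WT cells beside bound sequence. The Kcns3 stretch (chr12:11150374-11150623, minus strand) holds 23 CG, and its probe read -0.15 in Eed-KO, 1.53 in Dnmt1-KO and 0.33 in WT cells. The Kcnj1 stretch (chr9:32393735-32393984, plus strand) holds 2 CG, and its probe read -0.26 in Eed-KO, 0.02 in Dnmt1-KO and -0.17 in WT cells. The Kcnj16 stretch (chr11:110967783-110968032, plus strand) holds 3 CG, and its probe read 0.09 in Eed-KO, -0.77 in Dnmt1-KO and -0.16 in WT cells. Among these 5 probes the highest in WT cells lay in the Kcnj8 stretch, whose 6 CG equal the median over all RefSeq entries. Of the 83 genes, 62 had at least 1 of 86 RefSeq entries. The median number of CG in the 250 bases was 7.5 over these 86 entries and 6 over all 32851 entries. CACGTG, the E-box bound by Mga and Max and its own reverse complement, was present in 5 of the 86 entries, against 6.02% of all entries. TTCCCGC or its reverse complement GCGGGAA, a core of E2F sites, was present in 4 of the 86 entries, against 3.82% of all entries. Among the 11 entries of genes bound in WT cells, CACGTG was in 0 and TTCCCGC or GCGGGAA in 2, one of them the Kcna3 stretch printed above.

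Rybp was bound at 15 of the 83 Kcn promoters in Eed-KO cells, at 49 in Dnmt1-KO cells and at 12 in WT cells. The background over all 16331 promoters was 5.76% in Eed-KO, 46% in Dnmt1-KO and 5.15% in WT cells, so the Kcn shares of 18.1%, 59.0% and 14.5% lay above it in each genotype. The median Kcn level was 0.60 in Eed-KO, 1.24 in Dnmt1-KO and 0.62 in WT cells, and the median over all promoters was 0.21, 0.92 and 0.27 in the same order. Bound in all 3 genotypes were 10 Kcn promoters, in Dnmt1-KO cells alone 34, and in none 32. These patterns were not counted over all promoters, so they have no background and are not read as traits of Kcn genes. With the arrays set to 1 common spread of log ratios these counts were 14, 5 and 42, and 28 Kcn promoters were bound in Eed-KO, 28 in Dnmt1-KO and 31 in WT cells, against 10.6%, 16.5% and 13.5% of all promoters. With the trend on GC content removed as well, 24 were bound in Eed-KO, 16 in Dnmt1-KO and 26 in WT cells, against 8.84%, 9.11% and 11.1% of all promoters. The excess of bound Kcn promoters in Dnmt1-KO over WT cells thus rests on the scale as measured. Among 62 other ion channel genes (sodium, calcium, Trp, chloride, Hcn and cyclic-nucleotide-gated channels, taken by symbol), 3 were bound in Eed-KO, 29 in Dnmt1-KO and 3 in WT cells, and their median WT level was 0.33. The 3 bound in WT cells were the calcium channel genes Cacna1e, at 1.30, Cacnb2, at 1.15, and Cacna1b, at 1.05. Of 12 measured genes whose proteins associate with potassium channels, 0 were bound in WT cells. Abcc8 and Abcc9, the sulphonylurea receptors that assemble with Kcnj11 and Kcnj8 channels, read 0.54 and 0.40 in WT cells. With 1 array per promoter and genotype, none of these differences between lists was tested.

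**Figure D1:**
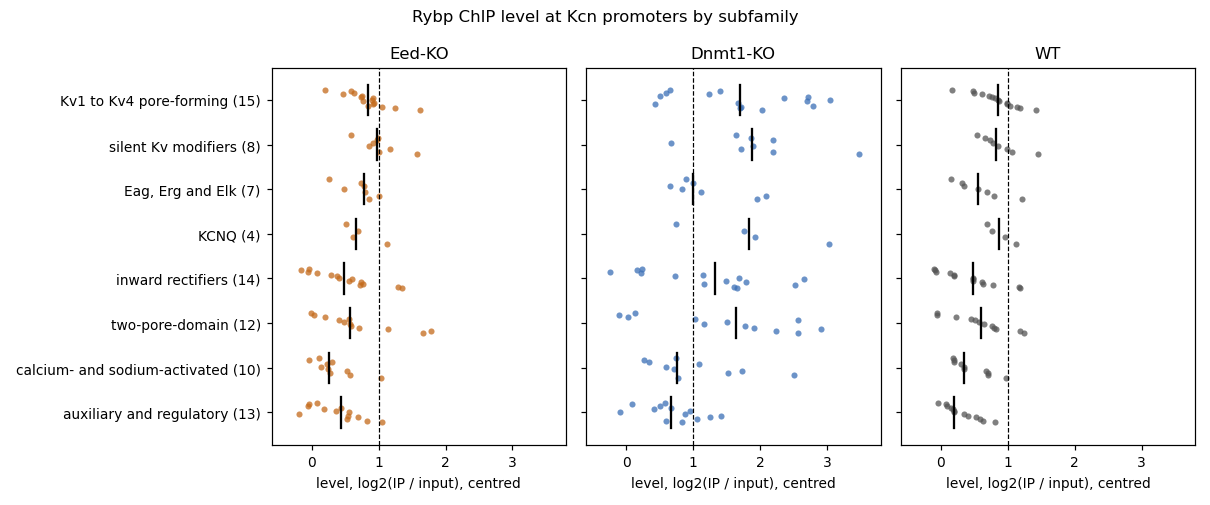
Level of each of the 83 Kcn promoters, as centred log2 IP over input on the horizontal axis, in Eed-KO, Dnmt1-KO and WT cells, grouped by subfamily with the number of genes in parentheses. Points are genes, black bars subfamily medians, and the dashed line the level of 1 that is called bound. The Kv, silent Kv and KCNQ groups have WT medians of 0.82 to 0.86, and the auxiliary genes 0.20.

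The subfamilies had unlike median levels. In WT cells the median was 0.85 for the 15 pore-forming Kv1 to Kv4 genes, 0.82 for the 8 silent Kv modifiers (Kcnf, Kcng, Kcns, Kcnv) and 0.86 for the 4 KCNQ genes. The 12 two-pore-domain genes had a WT median of 0.60, the 7 Eag, Erg and Elk genes (Kcnh) 0.55 and the 14 inward rectifiers 0.48. The 10 calcium- and sodium-activated genes and their beta subunits had a WT median of 0.35, and the 13 auxiliary and regulatory genes 0.20. The number bound in WT cells was 4 of 15 for Kv1 to Kv4, 2 of 8 for the silent modifiers, 1 of 7 for Kcnh, 1 of 4 for KCNQ, 2 of 14 for the inward rectifiers and 2 of 12 for the two-pore-domain genes. None of the 10 calcium- and sodium-activated genes (0 of 10) and none of the 13 auxiliary genes (0 of 13) was bound in WT cells. Over all promoters the share bound in WT cells was 5.15%, so 0 in groups of this size lies close to the background. The order of the 3 highest medians, which lie within 0.05 of each other, is not resolved by these arrays.

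Of the 7 shaker-related Kcna genes, voltage-gated channels of neurons, muscle and lymphocytes, 3 were bound in WT cells, against 5.15% of all promoters. Kcna1, whose human counterpart is mutated in episodic ataxia, stood at 1.63 ± 0.43 in Eed-KO, 2.03 ± 0.46 in Dnmt1-KO and 1.42 ± 0.56 in WT cells (SD over 6 probes). Its window (chr6:126609582-126610324) was centred 1463 bp downstream of the start. As measured, all 6 probes read higher in Dnmt1-KO than in WT cells, as they did in 42 Kcn windows. Such windows were not counted over all promoters, of which 83.9% had a Dnmt1-KO minus WT difference above 0. The Dnmt1-KO minus WT difference of Kcna1 was 0.61 as measured but -0.73 with the arrays set to 1 common spread. It was -0.77 with the trend on GC content removed as well, so its direction rests on the scale. Kcna6, a neuronal delayed rectifier, lies 94.6 kb from Kcna1 and stood at 1.25 in Eed-KO, 1.69 in Dnmt1-KO and 1.18 in WT cells. On the other side of Kcna1, at 109 kb, Kcna5, a channel of atrial muscle, was below the bound level in each genotype, at 0.76 in Eed-KO, 0.50 in Dnmt1-KO and 0.72 in WT cells. The second Kcna cluster, on chromosome 3, had Kcna3, the lymphocyte channel, at 1.05 in Eed-KO, 1.71 in Dnmt1-KO and 1.13 in WT cells. Its neighbour Kcna2, an axonal channel 64.1 kb away, stood at 0.93 in Eed-KO, 1.67 in Dnmt1-KO and 0.98 in WT cells, just under the bound level in Eed-KO and WT. Kcna4 and Kcna7 were lower, at 0.63 and 0.60 in Eed-KO cells and 0.49 and 0.48 in WT cells.

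Among the other Kv genes, Kcnc1, a fast-spiking channel, had the highest CG density of the Kcn windows, at 10.9 CG per 100 probe bases, and stood at 0.47 in Eed-KO, 1.24 in Dnmt1-KO and 0.62 in WT cells. Kcnd3, an A-type channel of heart and brain, stood at 0.91 in Eed-KO, 0.43 in Dnmt1-KO and 0.99 in WT cells, but its window lay 5136 bp upstream of the annotated start. Over probes within 1 kb of that start Kcnd3 read 0.33 in Eed-KO, 0.35 in Dnmt1-KO and 0.08 in WT cells. The lowest Kv promoter in WT cells was that of the A-type channel Kcnd1, at 0.20 in Eed-KO, 0.65 in Dnmt1-KO and 0.17 in WT cells.

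Of the silent Kv modifiers, Kcnf1, which combines with other Kv subunits, had the highest WT level of the 83 genes. Its 6 probes lay between 0.81 and 1.99 with a median of 1.62 in Eed-KO cells, between 2.75 and 4.46 with a median of 3.38 in Dnmt1-KO cells and between 0.71 and 1.80 with a median of 1.59 in WT cells. As a linear ratio of IP over input this was 2.99-fold in Eed-KO, 11.2-fold in Dnmt1-KO and 2.73-fold in WT cells. As measured, the Dnmt1-KO probes did not overlap the WT probes. The Dnmt1-KO minus WT difference of Kcnf1 was 2.03 as measured but 0.19 with the arrays set to 1 common spread. It was 0.16 with the trend on GC content removed as well, so its size rests on the scale. Kcns3, another silent subunit, stood at 1.01 in Eed-KO, 2.20 in Dnmt1-KO and 1.07 in WT cells. Kcnv1 was bound in Eed-KO cells, at 1.17, and in Dnmt1-KO cells, at 1.72, and lay just under the bound level in WT cells, at 0.99.

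Kcnh7, which encodes an Erg channel, stood at 0.85 ± 0.74 in Eed-KO cells and was bound in Dnmt1-KO cells, at 1.95 ± 0.50, and in WT cells, at 1.21 ± 0.72. Its window (chr2:62984636-62985814) had a dip at the start, where the probe 292 bp upstream read -0.17 in Eed-KO, 1.68 in Dnmt1-KO and 0.10 in WT cells, and the probes on both flanks were higher than this in Eed-KO and WT cells. Kcnh3, an Elk channel of the forebrain, was bound in Eed-KO cells, at 1.01, and in Dnmt1-KO cells, at 2.08, and stood at 0.80 in WT cells. Of the KCNQ genes, Kcnq5, a subunit of the neuronal M-current, stood at 1.12 in Eed-KO, 3.04 in Dnmt1-KO and 1.12 in WT cells. Kcnq1, the cardiac channel that lies in an imprinted cluster, stood at 0.52 in Eed-KO, 0.74 in Dnmt1-KO and 0.69 in WT cells and was called bound in none of the genotypes.

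Kcnk13, a leak channel known from microglia, and Kcnk9, an acid-sensitive leak channel expressed from the maternal allele in brain, were the 2 two-pore-domain genes bound in WT cells. Kcnk13 stood at 1.66 ± 0.68 in Eed-KO, 2.57 ± 1.06 in Dnmt1-KO and 1.24 ± 0.44 in WT cells, with a window upstream of the start (chr12:100365937-100366937). Kcnk9 stood at 1.79 ± 0.25 in Eed-KO, 2.24 ± 0.40 in Dnmt1-KO and 1.18 ± 0.25 in WT cells, over a window that spans the start (chr15:72372853-72373717). Kcnk12, a close relative of Kcnk13, stood at 1.13 in Eed-KO, 2.91 in Dnmt1-KO and 0.82 in WT cells. At the other end of this subfamily, Kcnk6 and Kcnk7 stood at 0.03 and -0.01 in Eed-KO, -0.11 and 0.12 in Dnmt1-KO and -0.05 and -0.06 in WT cells.

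Of the inward rectifiers, Kcnj8, the pore of vascular ATP-sensitive channels, stood at 1.35 in Eed-KO, 1.66 in Dnmt1-KO and 1.18 in WT cells. Kcnj3, a G-protein-gated channel of heart and brain, stood at 1.29 in Eed-KO, 1.61 in Dnmt1-KO and 1.16 in WT cells. The 3 lowest WT levels of all 83 genes also belonged to this subfamily, with Kcnj1, the renal outer medullary channel, at -0.04 in Eed-KO, 0.24 in Dnmt1-KO and -0.10 in WT cells, Kcnj15 at -0.09 in WT cells and Kcnj16 at -0.08 in WT cells. Several of these genes are neighbours with unlike levels. Kcnj5, the partner of Kcnj3 in atrial muscle, lies 50.03 kb from Kcnj1 and stood at 0.60 in Eed-KO, 2.66 in Dnmt1-KO and 0.48 in WT cells. Kcnj2, a cardiac and muscle rectifier, lies 100.3 kb from the measured window of Kcnj16 and stood at 0.77 in Eed-KO, 1.16 in Dnmt1-KO and 0.62 in WT cells. Kcnj10, a glial channel, lies 12.3 kb from Kcnj9 and stood at 0.73 in Eed-KO, 2.52 in Dnmt1-KO and 0.78 in WT cells, against 0.37, 0.72 and 0.20 for Kcnj9 in the same order.

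The calcium- and sodium-activated genes ranged in WT cells between 0.18, for the beta subunit gene Kcnmb1, and 0.97, for Kcnmb2. Kcnmb2 was the 1 member bound in Eed-KO cells, at 1.03, and stood at 0.77 in Dnmt1-KO cells. Kcnma1, the large-conductance channel, stood at 0.52 in Eed-KO, 1.73 in Dnmt1-KO and 0.68 in WT cells. Among the auxiliary genes, Kcne3, a small beta subunit of KCNQ channels, was the highest in WT cells and the 1 bound in Eed-KO cells, at 1.05 in Eed-KO, 0.83 in Dnmt1-KO and 0.81 in WT cells. The lowest was Kcnip3, a calcium-binding partner of Kcnd channels, at 0.08 in Eed-KO, 0.58 in Dnmt1-KO and -0.04 in WT cells.

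**Figure D2:**
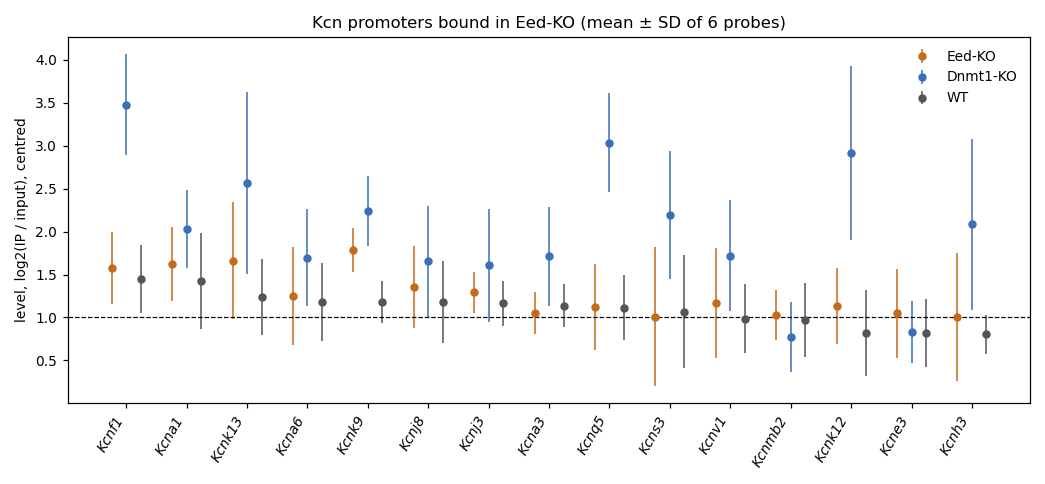
Level of the 15 Kcn promoters bound in Eed-KO cells, ordered by WT level, with Eed-KO, Dnmt1-KO and WT side by side. Points are means and bars SDs over the 6 probes of a window, on the centred log2 scale, and the dashed line is the bound level of 1. The 3 highest in Dnmt1-KO cells are Kcnf1 at 3.48, Kcnq5 at 3.04 and Kcnk12 at 2.91.

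Along the promoter, the median Kcn probe was highest just downstream of the start. In Eed-KO cells the median over Kcn probes was 0.57 in the bin 500 to 1000 bp downstream, against 0.14 over all genes. In Dnmt1-KO cells it peaked at 1.01 in the first 500 bp downstream, against 0.88 over all genes. In WT cells it was 0.50 in each of the first 2 bins of 500 bp downstream, against 0.26 and 0.16 over all genes. Kcn probes also lay above the median of all genes in the upstream bins, at 0.30 against 0.10 in WT cells between 1000 and 500 bp before the start. Other ion channel genes lay between these curves in every bin of the WT arrays but the first 500 bp downstream, at 0.23 between 500 and 1000 bp downstream.

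**Figure D3:**
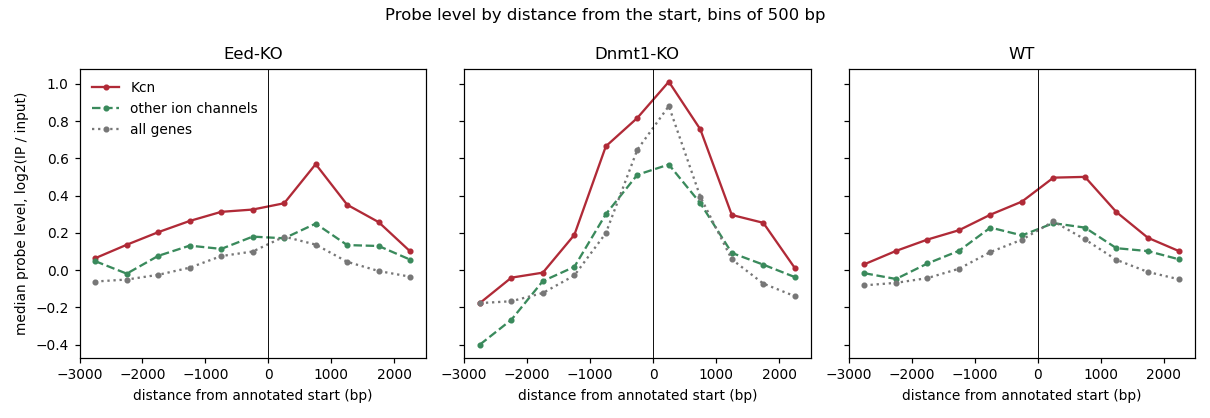
Median probe level in bins of 500 bp by distance from the annotated start, in Eed-KO, Dnmt1-KO and WT cells, for Kcn genes, other ion channel genes and all genes. The vertical axis is centred log2 IP over input. In WT cells the Kcn curve reaches 0.50 downstream of the start and that of all genes 0.26.

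In Eed-KO cells the Kcn levels lay close to those in WT cells. The median Eed-KO minus WT difference was 0.05 over the 83 Kcn promoters and -0.04 over all promoters, and 46 of 83 Kcn differences were above 0, against 40.7% of all promoters. With the arrays set to 1 common spread the Kcn median was -0.0016 and that of all promoters -0.07, so the sign of the Kcn median is not fixed by these data. Of the 17 Kcn promoters bound in Eed-KO or WT cells, 0 differed by 1 or more in either direction, against 0.088% higher and 0% lower of the 1136 promoters bound in Eed-KO or WT cells over the whole array. At a difference of 0.5 or more, which was chosen after the values were seen, 1 was higher and 0 were lower, against 4.4% and 2.02% over the whole array. The 1 gene was Kcnk9. Its 6 probes lay between 1.46 and 2.10 in Eed-KO cells and between 0.87 and 1.53 in WT cells, and all 6 were higher in Eed-KO. The Kcnk9 difference was 0.61 ± 0.10 (SE over 6 probes), a ratio of 1.52, and it ranged between 0.23 and 0.61 over 13 alternative settings. The input signal within 1 Mb of Kcnk9 differed by -0.08 on the log2 scale between Eed-KO and WT cells.

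Other bound Kcn genes moved less. Kcnk13 was 0.42 ± 0.12 (SE) higher in Eed-KO than in WT cells with 6 of 6 probes in that direction. Its local input signal was 0.19 higher in Eed-KO cells, and so was its local IP signal, at 0.19. The part of these shifts in the result was not tested. Kcnk12 was 0.32 ± 0.12 higher, with 5 of 6 probes. Kcnh7 had the lowest difference among the 17, at -0.36 ± 0.11, with 5 of 6 probes lower in Eed-KO. Of the 12 Kcn promoters bound in WT cells 10 were also bound in Eed-KO cells, against 645 of 841 over all promoters. Kcnh7 was among the Kcn promoters bound in WT and not in Eed-KO cells. Below the bound level, Kcns2 was 0.32 ± 0.02 higher in Eed-KO cells with 6 of 6 probes, and Kcnmb4, a neuronal beta subunit, had a difference of -0.43 ± 0.11 with 6 of 6 probes lower, but of 0.0080 in the window chosen on the Eed-KO and WT arrays. Kcnh1 and Kcnh2, an Eag channel and the cardiac Erg channel, were 0.44 ± 0.15 and 0.42 ± 0.12 higher, but over probes within 1 kb of the start their differences were -0.23 and -0.09. The local input signal was shifted by 0.2 or more between Eed-KO and WT cells around Kcnd1, Kcng3, Kcnh5 and Kcnrg, by 0.27, 0.70, 0.23 and 0.76 on the log2 scale, and none of these 4 was bound in Eed-KO or WT cells. Leaving these 4 out could therefore not change the counts of 15 and 12 bound in Eed-KO and WT cells, and is no check on the input shift.

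In Dnmt1-KO cells the Kcn levels were higher as measured, but not once all arrays were set to 1 common spread of log ratios. The median Dnmt1-KO minus WT difference was 0.62 over the Kcn promoters and 0.61 over all promoters. Of the 83 Kcn differences 74 were above 0, against 83.9% of all promoters. Of the 49 Kcn promoters bound in Dnmt1-KO or WT cells, 26 were higher by 1 or more and 0 lower, against 53.9% higher and 0.0398% lower of 7545 such promoters over the whole array, so the Kcn share was at the background. The Dnmt1-KO arrays had wider log ratios, with SDs of 0.91 and 0.96, against 0.41 and 0.42 on the WT arrays. Per the file headers they were read on another scanner model with a later version of the extraction software, so genotype and scan cannot be told apart. With the arrays set to 1 common spread the median difference was 0.01 for Kcn and 0.07 for all promoters, and 0 Kcn promoters were higher and 1, Kcnd3, lower by 1 or more, against 2.48% and 2.34% of all promoters bound in either. After also removing the trend on GC content the median difference was -0.08 for Kcn and 0.01 for all promoters, and again 0 Kcn promoters were higher and 1 lower by 1 or more, against 2.06% and 4.16%. Windows chosen on the Eed-KO and WT arrays, which leave the Dnmt1-KO values out of the choice, gave a median difference of 0.41 for Kcn and 0.33 for all promoters.

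The highest Dnmt1-KO minus WT differences among bound Kcn promoters, on the scale as measured, were those of Kcnd2 at 2.20 ± 0.47, Kcnj5 at 2.18 ± 0.66, Kcnk12 at 2.10 ± 0.43, Kcnk4 at 2.06 ± 0.55 and Kcnf1 at 2.03 ± 0.31 (SE over 6 probes). With 1 common spread these were 0.63, 0.99, 0.69, 0.90 and 0.19 in the same order, and after also removing the trend on GC content 0.64, 0.88, -0.21, 0.21 and 0.16. Kcnd2 encodes an A-type channel of dendrites and Kcnk4 a mechanosensitive leak channel. In Kcnj5 the 6 probes lay between 0.46 and 4.57 in Dnmt1-KO cells and between 0.06 and 0.82 in WT cells. The 2 highest, 536 and 344 bp upstream of the start, read 4.57 and 3.94 in Dnmt1-KO cells, against 0.06 and 0.58 in WT cells. The window of Kcnj5 chosen on the Eed-KO and WT arrays lay elsewhere and read lower in Dnmt1-KO cells, by -0.60. Kcnc4, Kcnq5 and Kcnc2 followed at 1.96, 1.92 and 1.84 as measured and at 0.56, 0.27 and 0.50 with 1 common spread. Of all 83, Kcnd3 had the lowest difference, at -0.56 ± 0.16 with 5 of 6 probes lower in Dnmt1-KO cells, and -1.08 with 1 common spread, but in that window far upstream of the start. Over probes within 1 kb of the start the Kcnd3 difference was 0.27, so its direction turned with the window. At least 1 probe of the window was saturated on the Dnmt1-KO arrays in 10 Kcn windows, Kcnf1, Kcnd2, Kcnc4 and Kcnq5 among them. The count takes saturation of the IP or the input signal, so the direction in which such a ratio is limited is not given.

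**Figure D4:**
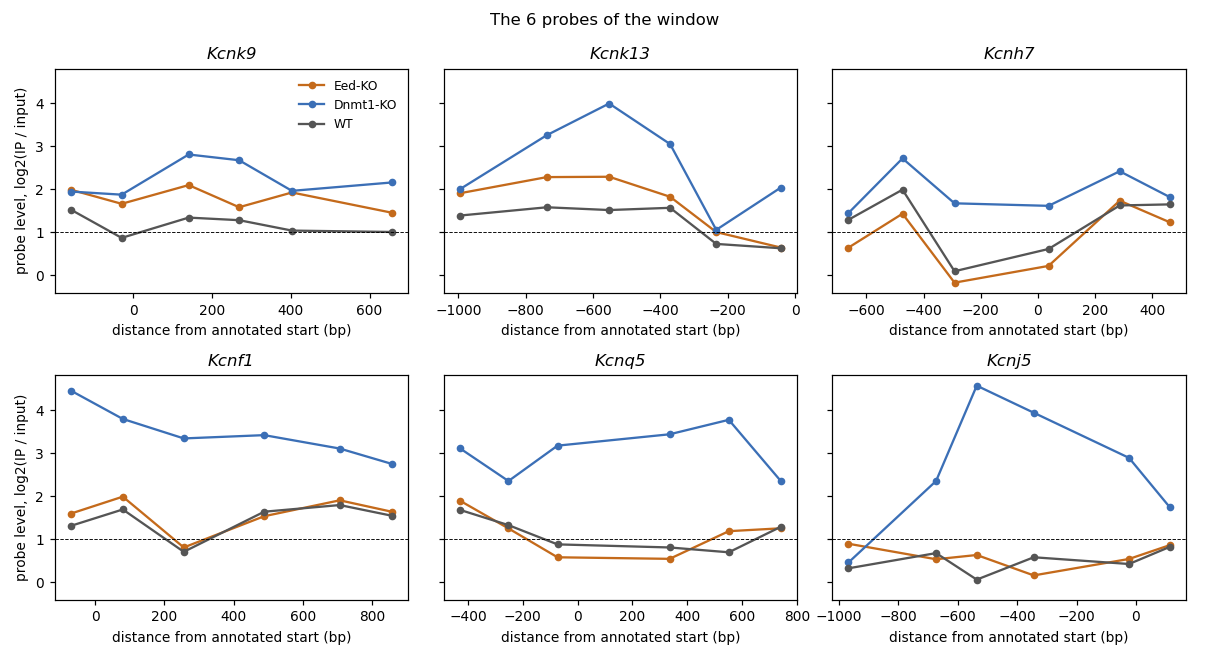
Level of each of the 6 probes of the window against distance from the annotated start in bp, for 6 Kcn genes in Eed-KO, Dnmt1-KO and WT cells, on the centred log2 scale. In Kcnk9 the Eed-KO probes all lie above the WT probes at the same position, and in Kcnj5 the Dnmt1-KO line peaks at 4.57, 536 bp upstream.

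CG density played no part in choosing the genes. The 12 windows bound in WT cells had a median of 4.67 CG per 100 probe bases, the 71 others 2.17, and all 16331 promoters 2.47. All of the 12 had at least 2.42 CG per 100 bases, whereas Kcnmb2, with 0.90, and Kcnv1, with 1.93, lay just under the bound level. Across the 83 Kcn promoters the WT level and CG density had a Pearson r of 0.50 and a Spearman rho of 0.58, and across all promoters 0.45 and 0.57. The Dnmt1-KO minus WT difference also followed CG density, with an r of 0.40 over Kcn and 0.50 over all promoters, and the Eed-KO minus WT difference went slightly the other way, at -0.25 and -0.21. These correlations are across promoters that share their arrays and whose log ratios also follow GC content, so they describe these arrays only. The Kcn share bound in WT cells lay above that of all promoters in 3 of 4 bands of CG density, which was not tested. Between 2 and 4 CG per 100 bases 6 of 26 Kcn windows were bound in WT cells, a share of 23.1%, against 7.86% of all promoters. Between 4 and 6 it was 3 of 19, or 15.8%, against 8.15%, and at 6 or more 3 of 6, or 50%, against 5.24%. Below 2 it was 0 of 32, against 1.75%. The median WT level in these bands, low to high, was 0.20, 0.80, 0.70 and 0.83 for Kcn and 0.05, 0.35, 0.43 and 0.46 for all promoters.

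**Figure D5:**
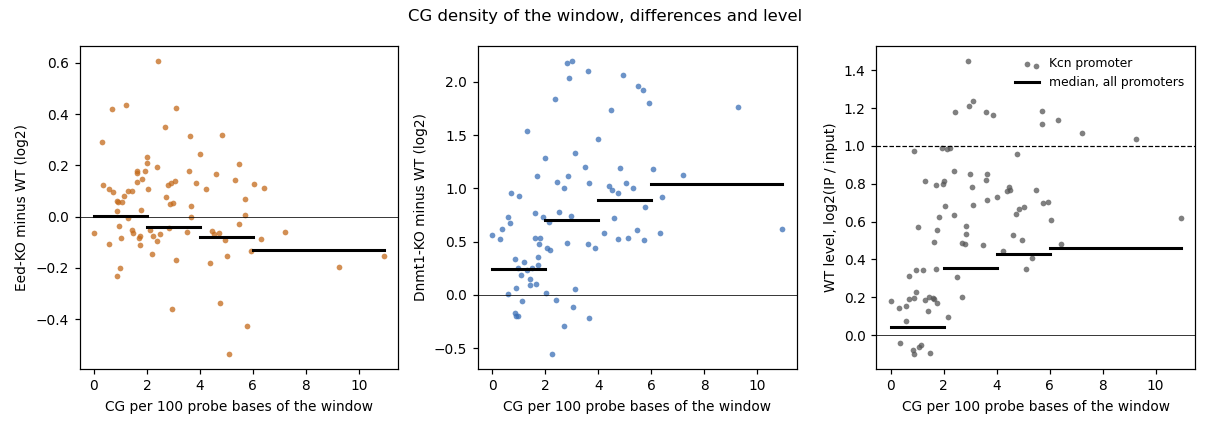
Eed-KO minus WT difference, Dnmt1-KO minus WT difference and WT level of each Kcn promoter against the number of CG per 100 probe bases of its window. Points are genes, horizontal bars the median of all promoters in the same band of CG density, and the dashed line the bound level of 1. All 12 Kcn windows bound in WT cells lie at 2.42 CG per 100 bases or more.

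The number of bound Kcn promoters depended on how the window was drawn. Over probes within 1 kb of the start, 81 Kcn promoters were measured and 4 were bound in Eed-KO, 37 in Dnmt1-KO and 4 in WT cells, against 1.71%, 29.2% and 1.48% of all promoters in the same order. The 4 in Eed-KO cells were Kcnk13 at 1.49, Kcnk9 at 1.44, Kcnf1 at 1.18 and Kcnj8, and the 4 in WT cells Kcnh7 at 1.14, Kcnf1 at 1.097, Kcnk13 at 1.06 and Kcnq5 at 1.05. Kcna1 read 0.57 in WT cells under this rule, since its bound probes lay beyond 1 kb. The identity of the ES cells and of the knockouts cannot be checked here, as the arrays measure genomic DNA at promoters.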

How the data were processed

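Rybp IP (Cy5) and input (Cy3) DNA were hybridised together to 6 Agilent arrays, 2 designs for each of 3 genotypes. Per the file headers, the deposited spot intensities were background-subtracted and dye-normalised by Agilent Feature Extraction. The software version is 10.1.1.1, with scanner G2505C, in the Dnmt1-KO headers and 9.5.3.1, with scanner G2505B, in the others, while the submitters' processing notes list 9.5.3.1 throughout. The log10 ratios of IP over input in the authors' value table equal the scanner log10 ratios plus a constant for each array (tolerance 0.001, met by 99.0% or more of the probes). Its column medians were -0.0317 and -0.0316 (Eed-KO), -0.121 and -0.114 (Dnmt1-KO), and -0.025 and -0.027 (WT), and how its centring was chosen is unknown.

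From the processed intensities, log2 ratios were taken, centred on the array median and averaged over windows with Python 3.11.15 and numpy 2.4.6; 333 probes flagged as outliers on any array of their design were dropped and saturated ones were not. Kcn genes, distances and coordinates were read from the Dnmt1-KO scanner files. RefSeq accessions (GRCm38.p6 table, names only) matched for 16303 of 16908 genes; the Kcn symbols in the file were kept, since none was renamed. Genes sharing 1 window count once. Named genes were every member bound in WT, the lowest 5, the extremes of each subfamily and of each knockout's differences, Kcnq1 and Kcnk9; some of these genes are not reported here. Promoter sequences were meant to be those of the 3 highest and 2 lowest members with a RefSeq entry; after the values were seen, entries without a probe of the gene were passed over. The members, lists and rules were chosen with earlier results of these data known. The window procedure was tested on simulated data. Alternatives included normexp (limma 3.58.1, offset 50), the authors' table, 1 common median absolute deviation, a lowess trend on GC content (span 0.3, 3 robust passes), other windows, filters and bound levels, and each array design alone. Those added later left out windows centred over 2500 bp from the start, left out members with a shifted local input, and used a difference of 0.5.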

Additional observations from a re-analysis of the deposited data

How the results depend on the processing

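The counts of bound Kcn promoters are given as Eed-KO, Dnmt1-KO and WT, with the share of all promoters in brackets. They were 15, 49 and 12 as reported (5.76%, 46% and 5.15%), and 28, 28 and 31 with the arrays set to 1 median absolute deviation (10.6%, 16.5% and 13.5%), when the median differences were -0.0016 for Eed-KO minus WT and 0.0079 for Dnmt1-KO minus WT. With the GC trend removed as well they were 24, 16 and 26 (8.84%, 9.11% and 11.1%), with a median Dnmt1-KO minus WT difference of -0.083. All probes of a gene gave 0, 6 and 0 (0.26%, 3.03% and 0.097%), with a median Dnmt1-KO minus WT difference of 0.0049. Normexp background correction gave 9 in Eed-KO and 4 in WT (3.54% and 2.50%), probes within 1 kb of the start 4 and 4 (1.71% and 1.48%), a bound level of 1.5-fold 42 and 43 (18.7% and 20.6%), and one of 3-fold 3 and 0 (0.704% and 0.276%). Windows of 4 probes gave 19 in WT (7.37%). Design 1 alone, with 44 of the genes, had 8 in Eed-KO and 24 in Dnmt1-KO (5.26% and 47.4%), and design 2 alone 7, 25 and 4 (6.26%, 44.7% and 4.999%). The 12 promoters bound in WT as reported were all among those bound with centring on the mode (17) and 1 median absolute deviation (31). They were also the 12 bound in windows chosen on Eed-KO and WT. These 3 settings raised the share of all promoters bound in WT, to 6.19%, 13.5% and 5.82%, so retention under them is a weak check. All 12 also stayed bound with outlier spots kept or dim input probes left out, and 11 with saturated probes left out. Of the 12, 10 were bound in the authors' table and 8 with the GC trend removed. Normexp kept 4, probes within 1 kb 4 and all probes 0. Of the 26 called Dnmt1-KO minus WT differences, 5 changed sign with 1 median absolute deviation, 8 with the GC trend removed as well, 4 over all probes, 2 within 1 kb and 1 in windows chosen on Eed-KO and WT. Of all 83 differences, called or not, 33 changed sign with 1 median absolute deviation. Sign changes were not counted over all promoters, where the share of differences above 0 went from 83.9% to 57.7% under this setting. The genes chosen for naming gave some of the sign changes among called Kcn differences. With 1 median absolute deviation they were Kcnk13 at -0.083, Kcnk9 at -0.21 and Kcns3 at -0.34, beside Kcnv2 at -0.27 and Kcnk1 at -0.07, which were not so chosen. With the GC trend removed as well these were Kcnk12 at -0.21, Kcnk13 at -0.0039, Kcnk9 at -0.21 and Kcns3 at -0.45. Over all probes they were Kcnd2 at -0.020 and Kcnj5 at -0.018, within 1 kb Kcng4 at -0.15, beside Kcnj11 at -0.44, and in windows chosen on Eed-KO and WT Kcnj5 at -0.60. No called Eed-KO minus WT difference changed sign, as none was called. Fewer probes or genes enter the design and window settings by construction, and the cause of the other shifts was not tested. No paired analysis was possible because each promoter had 1 array per genotype. The share of probes whose input stood well above background was 85.8% and 88.1% in Dnmt1-KO and 99.9% in WT, by a stricter rule of the later software in Dnmt1-KO.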
